A study of Mus musculus with 6 samples.

Results

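The endoplasmic reticulum (ER) genes described here are 57 mouse genes for the import of proteins into the ER, their folding, their transport onwards and the disposal of those that do not fold. They were chosen by name, as a list of symbols for known ER machinery, and each symbol matched exactly 1 of the 56691 genes in the deposited table. By role, 20 act in translocation across the ER membrane, 8 in vesicle transport and retrieval, 17 in folding, 10 in ER-associated degradation (ERAD) and 2 in calcium or membrane homeostasis. Averaged over all libraries, 55 of the 57 reached 0.5 FPKM and were tested, while Srp54a and Derl3 lay under that level.

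RNA came from 4T1, a mouse mammary carcinoma cell line, in 2 groups of 3 libraries. The KIRA6 group was cultured for 4 h with KIRA6 at 1 µmol/L, a kinase inhibitor that attenuates the RNase of the ER stress sensor IRE1α. The Vehicle group was cultured for 4 h with vehicle, whose composition the labels leave out. Nor do they tie the libraries to cultures: p-values measure the spread among 6 libraries and may be technical.

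Secreted and membrane proteins reach the ER when the signal recognition particle binds their signal peptide and docks the ribosome at the Sec61 channel, where signal peptidase removes the peptide. Inside, the chaperone BiP, the lectins calnexin and calreticulin and the disulfide isomerases fold them, COPII vesicles carry them to the Golgi, and KDEL receptors bring escaped chaperones back. Proteins that stay misfolded are passed through the Hrd1 and Sel1l complex to the proteasome. When misfolded proteins accumulate, the unfolded protein response raises many of these genes through the factors XBP1, made by IRE1α splicing, and ATF6.

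Both factors act through the ER stress response element (ERSE), which is CCAAT, 9 bases of any kind and CCACG, or its second form ERSE-II, ATTGG, 1 base of any kind and CCACG, and these letters are shown because they are the known shared feature of promoters in this response. RefSeq promoters (build GRCm38.p6, from 250 bases before to 50 after the start) were matched by symbol for 47 of the 57 genes; Atp2a2, Derl1, Hyou1, Kdelr2, Manf, Sec61a1, Spcs3, Srp19, Srp68 and Ssr2 were not matched. Searched on both strands, ERSE was found in 10 of the 47 (21.3%), against 37 of 27025 genes in the whole promoter table (0.137%). The genes were listed as known ER machinery and the element is known from this response, so this difference is no result of these data. The matches follow, read on the strand of the element, with the fixed letters in capitals and the position of its leftmost base in the promoter window counted from the start of the gene.
Calr, position −162: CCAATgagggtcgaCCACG
Canx, position −145: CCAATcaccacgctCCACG
Creld2, position −126: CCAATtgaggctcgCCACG
Derl3, position −156: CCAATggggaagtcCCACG
Dnajc3, position −105: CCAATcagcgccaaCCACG
Ero1b, position −201: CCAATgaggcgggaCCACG
Hsp90b1, position −212: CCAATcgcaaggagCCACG
Hsp90b1, position −107: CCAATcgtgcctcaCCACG
Hspa5, position −65: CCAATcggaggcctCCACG
Pdia6, position −98: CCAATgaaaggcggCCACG
Syvn1, position −44: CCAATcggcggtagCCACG

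ERSE-II was found in 2 of the 47, Herpud1 and Dnajb11, against 12 of 27025 genes (0.0444%). The core of the unfolded protein response element (UPRE), TGACGTGG, was found in Kdelr3 and Sec24d, against 193 of 27025 genes (0.714%). The CCAAT box alone, which is part of every ERSE and, read on the other strand, of ERSE-II, was in 35 of the 47 (74.5%), against 41.1% of genes. A match describes letters in this window and does not show that a factor was bound. The 2 promoters with ERSE-II are printed whole because their genes were called in opposite directions, and that of Hsp90b1 because it held 2 of the elements. Hspa5 is added as the promoter of the best-known gene of the response. Capitals mark the elements with the bases between their fixed letters.
Herpud1, chr8:94386179-94386478, plus strand: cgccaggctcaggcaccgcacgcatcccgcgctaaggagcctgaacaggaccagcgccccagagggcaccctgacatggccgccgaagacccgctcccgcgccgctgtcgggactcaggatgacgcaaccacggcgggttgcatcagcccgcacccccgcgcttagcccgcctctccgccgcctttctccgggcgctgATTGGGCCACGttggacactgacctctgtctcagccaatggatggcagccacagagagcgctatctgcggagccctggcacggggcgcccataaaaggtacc
Dnajb11, chr16:22857595-22857894, plus strand: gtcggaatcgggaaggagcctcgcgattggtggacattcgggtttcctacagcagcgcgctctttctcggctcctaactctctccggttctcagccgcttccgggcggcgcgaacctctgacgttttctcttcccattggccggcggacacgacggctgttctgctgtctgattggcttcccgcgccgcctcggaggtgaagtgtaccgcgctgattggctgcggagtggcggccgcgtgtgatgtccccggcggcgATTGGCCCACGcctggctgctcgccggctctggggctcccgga
Hsp90b1, chr10:86705395-86705694, minus strand: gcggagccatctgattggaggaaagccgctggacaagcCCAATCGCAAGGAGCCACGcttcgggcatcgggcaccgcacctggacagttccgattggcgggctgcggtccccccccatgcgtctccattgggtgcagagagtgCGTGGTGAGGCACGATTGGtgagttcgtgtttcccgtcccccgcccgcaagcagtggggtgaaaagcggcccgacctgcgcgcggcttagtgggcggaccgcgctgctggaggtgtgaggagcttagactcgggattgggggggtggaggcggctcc
Hspa5, chr2:34771840-34772139, plus strand: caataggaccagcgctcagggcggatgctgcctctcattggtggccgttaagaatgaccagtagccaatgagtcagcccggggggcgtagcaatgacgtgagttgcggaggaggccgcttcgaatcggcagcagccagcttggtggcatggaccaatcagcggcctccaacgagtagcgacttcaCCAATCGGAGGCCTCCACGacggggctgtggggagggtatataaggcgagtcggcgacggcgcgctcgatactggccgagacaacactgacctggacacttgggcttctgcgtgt

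The deposited values are FPKM, fragments divided by the length of the exons and by the depth of the library. The 3 KIRA6 libraries held an estimated 18214900 to 21343700 fragments assigned to genes and the 3 Vehicle libraries 16498900 to 18586100. Mitochondrially encoded genes took 2.66% to 3.25% of fragments in KIRA6 and 1.75% to 2.03% in Vehicle libraries. Epithelial markers were present (Epcam, Cdh1, Krt7, Krt8 and Krt18 summed to 1449 to 1547 FPKM with KIRA6 and 1334 to 1471 in Vehicle). Of the leukocyte markers Adgre1 and Cd3e were at 0 in every library and Ptprc and Itgam at or under 0.02 FPKM; the 5 markers summed to 3.07 to 3.80 FPKM with KIRA6 and 1.66 to 2.63 in Vehicle, nearly all of it Cd68. The 3 endothelial markers summed to at most 0.03 FPKM with KIRA6 and 0.06 in Vehicle. The 4 fibroblast markers summed to 1.81 to 3.70 FPKM with KIRA6 and 0.39 to 0.71 in Vehicle, nearly all of it Pdgfra, with Lum at 0 in every library. The part of these markers and of the mitochondrial share in the results was not tested. Vehicle replicate 3 and KIRA6 replicate 1 lay apart from their groups on the second principal component, which held 35.1% of the variance. On the first, which held 56.0%, both also lay towards the other group. There KIRA6 replicate 1 was at 11.0, against 42.1 and 48.6 for the other KIRA6 libraries. Vehicle replicate 3 was at −10.2, against −47.7 and −43.8 for the other Vehicle libraries.

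After 4 h with KIRA6, 6 of the 55 tested ER genes were called higher and 3 lower, so most of the machinery was not called in either direction. The 6 were Arfgap3, Herpud1, Sec62, Ero1b, Hsp90b1 and Edem2, and the 3 were Sec61a1, Ssr1 and Dnajb11. In bulk RNA, fewer cells with a transcript and less of it per cell cannot be told apart. A call is an adjusted p below 0.05 in limma with Benjamini-Hochberg adjustment over all 11778 genes tested, on log2(FPKM + 0.5), a scale that understates the change of low genes. Of all tested genes 15.6% were called higher and 7.98% lower, 23.6% in all, so the shares among the ER genes, 10.9%, 5.45% and 16.4%, lay below the background. The median log2 fold change of the ER genes was −0.07, with 33 of 55 below 0, while that of all tested genes was 0.16. KIRA6 and Vehicle libraries did not overlap for 10 ER genes that were higher and 10 that were lower, 18.2% each, against 27.7% and 14.1% of all tested genes (41.8% in all). Leaving out KIRA6 replicate 2, KIRA6 replicate 3, Vehicle replicate 1 or Vehicle replicate 2 kept the same 3 calls each time, Arfgap3 and Herpud1 higher and Sec61a1 lower. In these fits the calls among all 11778 genes fell too. They numbered 817 to 1101 higher and 394 to 521 lower, in place of 1843 and 940. Without KIRA6 replicate 1 there were 5 ER genes called higher and 1 lower, against 13.9% and 6.52% of all genes. Without Vehicle replicate 3 there were 7 higher and 4 lower, against 17.5% and 11.3% of all genes, where calls also became more frequent.

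The scaling between libraries sets where 0 lies. Median-ratio scaling moved the median of all genes to −0.008 and that of the ER genes to −0.26, and called 4 ER genes higher and 9 lower, against 11.0% and 12.2% of all genes. Values rescaled to TPM gave 5 calls higher and 7 lower (13.4% and 9.09% of all genes), and a correction for exonic length 4 higher and 9 lower (11.9% and 13.2%). Quantile normalization, which also brought the median of all genes near 0, at 0.003, went the other way for calls lower. It gave the ER genes a median of −0.06, with 5 called higher and 1 lower, against 9.61% and 10.0% of all genes. With no filter on low values, over 22295 genes, 4 were called higher and 1 lower, against 7.18% and 3.18%. The 57 genes together took 1.01%, 0.974% and 1.09% of all fragments in the KIRA6 libraries, against 1.13%, 1.16% and 1.13% in the Vehicle libraries. The groups did not overlap in this share. By mean FPKM the tested ER genes had a median of 29.0 with KIRA6 and 33.0 in Vehicle, while that of all tested genes was 6.35 with KIRA6 and 5.60 in Vehicle.

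**Figure D1:**
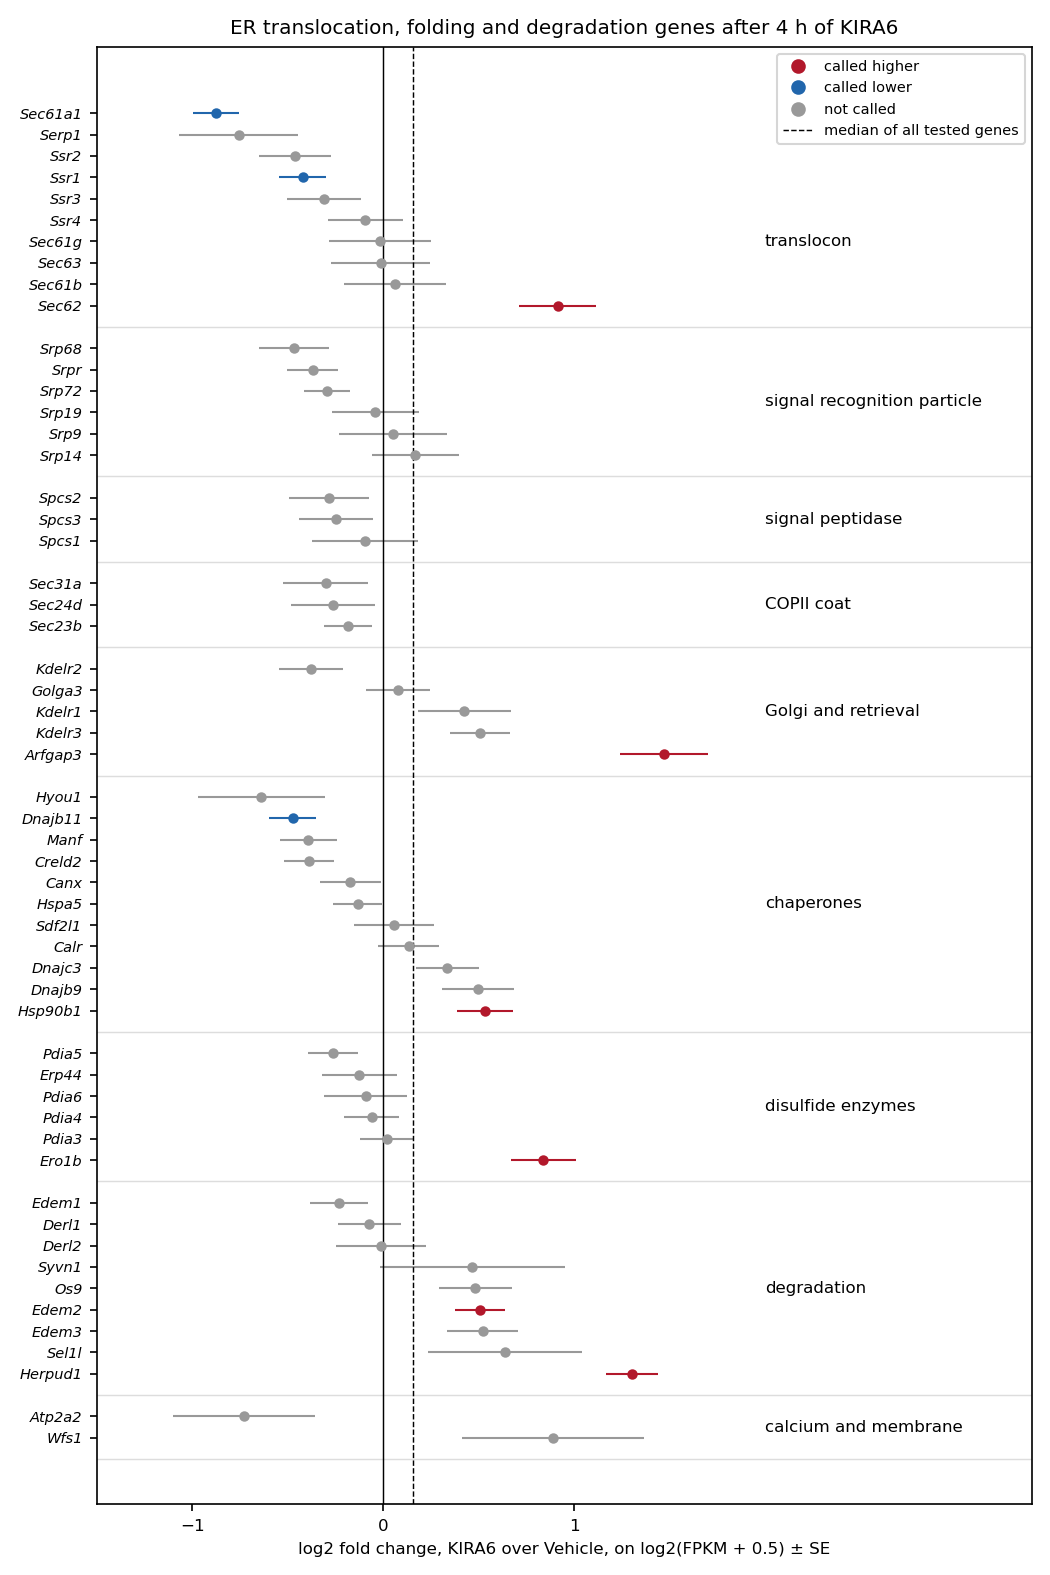
Log2 fold change of KIRA6 over Vehicle for the 55 tested ER genes, in blocks by role (y axis, genes), on the log2(FPKM + 0.5) scale (x axis) with limma standard errors as bars. Red and blue points are the 6 genes called higher and the 3 called lower, grey points were not called, and the dashed line is the median of all tested genes at 0.16.

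The genes of the translocation pathway were the class with the lowest median, −0.25 for 19 tested members, of which 15 lay below 0. Sec62 was called higher and Sec61a1 and Ssr1 lower, and the other 16 were not called. The background among all tested genes was 15.6% called higher and 7.98% called lower, with 4447 of 11778 below 0. Sec61a1 encodes the pore-forming α subunit of the Sec61 channel (chromosome 6, 88480561 to 88495887 on GRCm39, minus strand). It had 21.7, 20.6 and 22.0 FPKM in the KIRA6 libraries, against 37.2, 40.1 and 42.3 FPKM in the Vehicle libraries. The groups lay far apart, with no library near the other group, and the log2 fold change was −0.88 ± 0.12 (SE, limma adjusted p = 0.00387). The call held in each of the 6 fits without 1 library, with adjusted p up to 0.0299.

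The small subunits of the same channel were not called. Sec61b, the tail-anchored β subunit, had 65.5, 49.6 and 40.9 FPKM with KIRA6 and 60.6, 55.3 and 34.8 FPKM in Vehicle libraries. Its groups overlapped fully (log2 fold change 0.06 ± 0.27, SE, limma adjusted p = 0.898), and median-ratio scaling turned the value to −0.13. Sec61g, the γ subunit, averaged 32.0 ± 8.36 FPKM with KIRA6 and 32.3 ± 8.19 FPKM in Vehicle (SD, n = 3 each). No test of the difference between the subunits was made.

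Sec62 and Sec63 work beside the channel on proteins that enter after translation, and Sec62 is also a receptor for the autophagy of ER membrane. Sec62 had 13.4, 20.1 and 21.3 FPKM with KIRA6, against 9.08, 8.57 and 10.2 FPKM in Vehicle. Every KIRA6 library was above every Vehicle library, though KIRA6 replicate 1 was nearest to them, and the log2 fold change was 0.91 ± 0.20 (SE, limma adjusted p = 0.0204). The call ended without KIRA6 replicate 2 (adjusted p = 0.0912), KIRA6 replicate 3 (0.0728), Vehicle replicate 1 (0.0654) or Vehicle replicate 2 (0.0842). Its partner Sec63 averaged 5.83 ± 1.74 FPKM with KIRA6 and 5.83 ± 1.45 FPKM in Vehicle (SD, n = 3 each), with overlapping groups.

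The translocon-associated protein complex, which helps some signal peptides open the channel, has the subunits Ssr1 to Ssr4. Ssr1 had 23.9, 22.9 and 26.9 FPKM with KIRA6, against 32.7, 33.1 and 33.2 FPKM in Vehicle. The Vehicle values were nearly equal and all above the KIRA6 values, with a log2 fold change of −0.42 ± 0.12 (SE, limma adjusted p = 0.0482). That call was close to the threshold. It ended without KIRA6 replicate 1 (adjusted p = 0.116), KIRA6 replicate 2 (0.181), KIRA6 replicate 3 (0.0636), Vehicle replicate 1 (0.135), Vehicle replicate 2 (0.171) or Vehicle replicate 3 (0.0524). It ended too with no filter on low values, TPM, quantile normalization, plain empirical Bayes or limma-voom (adjusted p from 0.0505 to 0.0831). Ssr2, Ssr3 and Ssr4 had log2 fold changes of −0.46, −0.31 and −0.09 and were not called. Among the 4 subunits Ssr3 and Ssr2 had the highest levels, at 122 and 84.3 FPKM with KIRA6 and 153 and 115 FPKM in Vehicle.

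Serp1, also known as RAMP4, is a small protein that binds the channel. It had 73.0, 53.0 and 56.8 FPKM with KIRA6, against 135, 126 and 63.0 FPKM in Vehicle. Vehicle replicate 3 alone fell among the KIRA6 libraries, and the log2 fold change of −0.76 ± 0.31 was not called (SE, limma adjusted p = 0.126). Without Vehicle replicate 3 it was −1.11 with an adjusted p of 0.00665. Leaving out the library that fell among the KIRA6 libraries must widen the difference, so this fit is no independent result. The other fits without 1 library did not call it (limma adjusted p from 0.12 to 0.32).

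None of the 6 tested genes of the signal recognition particle and its receptor was called, and 4 of the 6 lay below 0. Of all tested genes 15.6% were called higher and 7.98% lower. Srpr, the α subunit of the receptor, averaged 126 ± 8.72 FPKM with KIRA6 and 164 ± 12.0 FPKM in Vehicle (SD, n = 3 each). Srp72, a scaffold of the particle, had 26.8 to 30.2 FPKM with KIRA6 and 33.9 to 37.1 FPKM in Vehicle. For both genes every KIRA6 library was under every Vehicle library (limma adjusted p = 0.0899 and 0.130). Srp68, the binding partner of Srp72, had a log2 fold change of −0.47 ± 0.18 (SE, limma adjusted p = 0.111). It was called lower without Vehicle replicate 3 (−0.61, adjusted p = 0.0321), its lowest Vehicle library, so leaving that out must lower the fold change. The other fits without 1 library did not call Srp68 (limma adjusted p from 0.079 to 0.313). Srp9 and Srp14, which together halt elongation, and Srp19 lay between −0.04 and 0.17. Median-ratio scaling, under which 12.2% of all genes were called lower, called Srpr, Srp68 and Srp72 lower. Quantile normalization did not call these genes.

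Srp54a, a gene for the subunit that binds the signal peptide, had estimates of 3, 0 and 0 fragments in the KIRA6 libraries and 1, 1 and 1 in the Vehicle libraries. It has near-identical neighbours on chromosome 12, and one of them, Srp54c, had 3.18, 3.98 and 2.95 FPKM with KIRA6 and 2.96, 2.60 and 2.10 FPKM in Vehicle. Reads from such copies can be split or dropped in counting, so no level of Srp54a can be taken from these values.

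The 3 tested subunits of signal peptidase were not called, with log2 fold changes of −0.29 for Spcs2, −0.25 for Spcs3 and −0.10 for Spcs1. Their levels were 26.2 to 89.6 FPKM in the KIRA6 libraries and 29.2 to 93.5 FPKM in the Vehicle libraries. Vehicle replicate 3 was the lowest Vehicle library for all 3 genes, and KIRA6 replicate 1 the highest KIRA6 library.

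**Figure D2:**
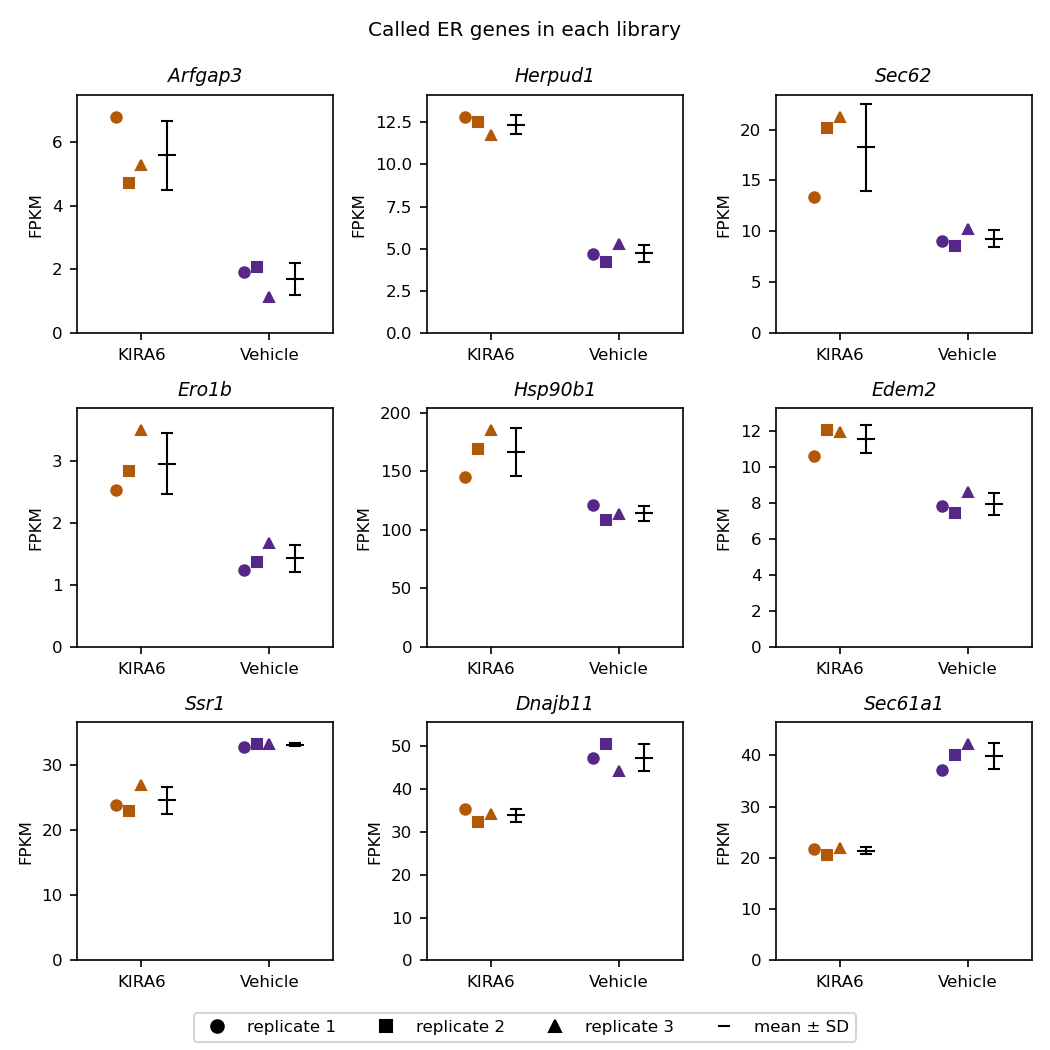
FPKM (y axis, from 0) of the 9 called ER genes in each KIRA6 and Vehicle library (x axis), with the mean ± SD of the 3 libraries beside the points and a symbol for each replicate. In all 9 panels the groups do not overlap, from Arfgap3 at 4.69 to 6.78 FPKM with KIRA6 against 1.13 to 2.07 in Vehicle, to Sec61a1 at 20.6 to 22.0 against 37.2 to 42.3.

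In vesicle transport the gene called was Arfgap3, and the COPII coat was not called. The shares of the 8 genes were 12.5% higher and 0% lower, against 15.6% and 7.98% of all tested genes. Arfgap3 encodes a protein that makes ARF1 hydrolyse GTP at the Golgi (chromosome 15, 83183940 to 83234448 on GRCm39, minus strand). It had 6.78, 4.69 and 5.26 FPKM with KIRA6, against 1.93, 2.07 and 1.13 FPKM in Vehicle. The lowest KIRA6 library was above the highest Vehicle library, and the log2 fold change was 1.47 ± 0.23 (SE, limma adjusted p = 0.0063), the largest among the 55 genes. The call held in each of the 6 fits without 1 library, with adjusted p up to 0.0303. Golga3, a Golgi matrix protein, averaged 4.77 ± 0.953 FPKM with KIRA6 and 4.45 ± 0.146 FPKM in Vehicle (SD, n = 3 each).

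Sec23b, Sec24d and Sec31a encode the GTPase-activating, cargo-binding and outer-coat parts of COPII. Their log2 fold changes were −0.19, −0.26 and −0.30, and limma adjusted p ran from 0.329 to 0.434. Without Vehicle replicate 3 the values of Sec24d and Sec31a shrank to −0.093 and −0.11. Sec24d had 12.1, 11.5 and 16.7 FPKM with KIRA6 and 13.0, 15.4 and 20.4 FPKM in Vehicle, with overlapping groups.

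The 3 KDEL receptors, which return chaperones to the ER, pointed different ways, and none was called. Kdelr3 had 42.5, 35.5 and 31.3 FPKM with KIRA6, against 24.8, 27.9 and 23.3 FPKM in Vehicle, so its groups did not overlap (log2 fold change 0.51 ± 0.16, SE, limma adjusted p = 0.0608). Kdelr2 had 46.1, 51.2 and 56.2 FPKM with KIRA6, against 58.1, 63.0 and 80.2 FPKM in Vehicle. Here every KIRA6 library was lower (log2 fold change −0.38 ± 0.17, SE, limma adjusted p = 0.149). Kdelr1 averaged 68.1 ± 14.3 FPKM with KIRA6 and 50.9 ± 13.7 FPKM in Vehicle (SD, n = 3 each), with overlapping groups. The difference between the receptors was not tested.

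Among the 17 folding genes Hsp90b1 and Ero1b were called higher and Dnajb11 lower, and the main chaperone BiP was not called. The shares of the class, 11.8% higher and 5.88% lower, lay below the 15.6% and 7.98% of all tested genes. Hspa5, which encodes BiP, had 297, 281 and 318 FPKM with KIRA6, against 333, 318 and 332 FPKM in Vehicle. The highest KIRA6 library reached the lowest Vehicle library, and the log2 fold change was −0.13 ± 0.13 (SE, limma adjusted p = 0.491). By mean level Hspa5 ranked 162 of 11778 tested genes with KIRA6 and 153 in Vehicle, after Calr at 115 and 128. Calr, a calcium-binding lectin chaperone, had 399, 419 and 486 FPKM with KIRA6 and 352, 386 and 453 FPKM in Vehicle. Its membrane-bound relative Canx had 96.5, 98.0 and 128 FPKM with KIRA6 and 115, 116 and 129.7 FPKM in Vehicle. Groups overlapped for both lectins (limma adjusted p = 0.597 and 0.484).

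Hsp90b1 encodes GRP94, the HSP90 of the ER (chromosome 10, 86526073 to 86541373 on GRCm39, minus strand). It had 145, 169 and 185 FPKM with KIRA6, against 121, 108 and 114 FPKM in Vehicle. All KIRA6 libraries were higher, with a log2 fold change of 0.53 ± 0.15 (SE, limma adjusted p = 0.0401). The call ended without KIRA6 replicate 2 (adjusted p = 0.144), KIRA6 replicate 3 (0.109), Vehicle replicate 1 (0.0958) or Vehicle replicate 2 (0.159). Median-ratio scaling also ended it, with a log2 fold change of 0.35 (adjusted p = 0.127), as did no filter (0.0645), TPM (0.0755) and the length correction (0.0655).

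BiP works with J-domain proteins that bring it clients, and these pointed different ways. Dnajb11, also called ERdj3, had 35.3, 32.3 and 34.1 FPKM with KIRA6, against 47.2, 50.6 and 44.2 FPKM in Vehicle, a log2 fold change of −0.47 ± 0.12 (SE, limma adjusted p = 0.0338). Its groups lay well apart, but the call ended without KIRA6 replicate 1 (adjusted p = 0.0653), KIRA6 replicate 2 (0.139), KIRA6 replicate 3 (0.0849), Vehicle replicate 1 (0.109) or Vehicle replicate 2 (0.155). It also ended with no filter on low values (adjusted p = 0.0563) and under quantile normalization (log2 fold change −0.39, adjusted p = 0.0521). Dnajb9, or ERdj4, a target of spliced XBP1 that directs clients to degradation, had 4.54, 4.35 and 5.16 FPKM with KIRA6 and 3.88, 3.33 and 2.43 FPKM in Vehicle. Dnajc3, which also restrains the kinase PERK, averaged 14.0 ± 1.64 FPKM with KIRA6 and 11.1 ± 1.69 FPKM in Vehicle (SD, n = 3 each). For Dnajb9 and Dnajc3 every KIRA6 library was above every Vehicle library, and neither was called (limma adjusted p = 0.103 and 0.192). Sdf2l1, a partner of Dnajb11, averaged 12.1 ± 2.93 FPKM with KIRA6 and 11.5 ± 1.76 FPKM in Vehicle (SD, n = 3 each).

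Creld2 and Manf, ER proteins that cells release under ER stress, had KIRA6 libraries all below the Vehicle libraries without a call. Creld2 averaged 18.5 ± 1.04 FPKM with KIRA6 and 24.4 ± 2.42 FPKM in Vehicle, and Manf 76.9 ± 8.70 FPKM with KIRA6 and 101 ± 9.26 FPKM in Vehicle (SD, n = 3 each; limma adjusted p = 0.0761 and 0.104). Median-ratio scaling, under which 12.2% of all genes were called lower, called both lower, and quantile normalization called neither. Hyou1, an exchange factor for BiP, had 19.2, 26.8 and 34.4 FPKM with KIRA6 and 29.5, 36.1 and 63.8 FPKM in Vehicle, where replicate 3 stood above the rest.

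Of the disulfide enzymes the oxidase Ero1b was called and the isomerases were not. Ero1b, which passes electrons from the isomerases to oxygen, had 2.54, 2.84 and 3.50 FPKM with KIRA6, against 1.25, 1.37 and 1.67 FPKM in Vehicle. The groups did not overlap, and the log2 fold change was 0.84 ± 0.17 (SE, limma adjusted p = 0.0157). The call ended without KIRA6 replicate 2 (adjusted p = 0.0663), KIRA6 replicate 3 (0.0541), Vehicle replicate 1 (0.0596) or Vehicle replicate 2 (0.0704). Quantile normalization ended it as well, with a log2 fold change of 0.50 (adjusted p = 0.0563). Pdia4, an isomerase bound to BiP, had 61.9, 62.1 and 71.3 FPKM with KIRA6 and 59.65, 69.6 and 74.7 FPKM in Vehicle. Pdia3, which folds glycoproteins with the lectins, Pdia5, Pdia6 and Erp44, which holds Ero1 oxidases in the ER, had log2 fold changes of 0.02, −0.26, −0.09 and −0.13. KIRA6 and Vehicle libraries of Pdia5 did not overlap, at 7.74 to 9.09 FPKM with KIRA6 and 9.73 to 10.9 FPKM in Vehicle.

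The degradation genes were the class with the highest median log2 fold change, 0.48 for 9 tested members, with 2 called higher and 0 lower by limma. At an unadjusted p below 0.05 there were 4 higher and 0 lower, where 24.6% and 12.8% of all tested genes were, and other settings called 1 to 5 of them higher. Of the settings tried, only leaving out both Vehicle replicate 3 and KIRA6 replicate 1 gave degradation genes called lower, Derl1 and Derl2. Their share called higher was 22.2%, against 15.6% of all tested genes. Herpud1 anchors ubiquilins to the Hrd1 complex (chromosome 8, 95113066 to 95122005 on GRCm39, plus strand). It had 12.8, 12.5 and 11.8 FPKM with KIRA6, against 4.69, 4.23 and 5.28 FPKM in Vehicle. The lowest KIRA6 library lay well above the highest Vehicle library, and the log2 fold change was 1.30 ± 0.14 (SE, limma adjusted p = 0.00174), the smallest p among the 55 genes. It held in each of the 6 fits without 1 library, with adjusted p up to 0.0170.

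Edem1, Edem2 and Edem3 mark misfolded glycoproteins by trimming their mannose. Edem2 had 10.7, 12.1 and 11.9 FPKM with KIRA6, against 7.85, 7.44 and 8.64 FPKM in Vehicle, a log2 fold change of 0.51 ± 0.13 (SE, limma adjusted p = 0.0339). Its groups did not overlap. The call ended without KIRA6 replicate 1 (adjusted p = 0.0552), KIRA6 replicate 2 (0.137), KIRA6 replicate 3 (0.0985), Vehicle replicate 1 (0.108) or Vehicle replicate 2 (0.150). Median-ratio scaling ended it too (log2 fold change 0.33, adjusted p = 0.123), as did no filter (0.0579), TPM (0.0834), quantile normalization (0.0729) and the length correction (0.0986). Edem3 had 5.02, 4.67 and 6.72 FPKM with KIRA6, against 3.81, 4.05 and 3.06 FPKM in Vehicle, and was not called (limma adjusted p = 0.0893). Edem1 had 8.70, 8.82 and 10.2 FPKM with KIRA6, against 9.61, 12.5 and 10.9 FPKM in Vehicle, with a value below 0 (log2 fold change −0.23 ± 0.15, SE, limma adjusted p = 0.310).

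Sel1l and Syvn1 encode the core of the Hrd1 complex, the adaptor and the ubiquitin ligase. Sel1l had 6.62, 11.3 and 15.9 FPKM with KIRA6, against 4.74, 5.42 and 11.2 FPKM in Vehicle, and Syvn1 1.87, 3.50 and 4.94 FPKM with KIRA6, against 1.18, 1.72 and 4.74 FPKM in Vehicle. Within each group the libraries of both genes differed by more than the group means did, and the groups overlapped (limma adjusted p = 0.301 and 0.537). Os9, a lectin that hands glycoproteins to Sel1l, averaged 29.4 ± 3.74 FPKM with KIRA6 and 21.1 ± 4.67 FPKM in Vehicle (SD, n = 3 each; limma adjusted p = 0.116). It was called higher without Vehicle replicate 3 (log2 fold change 0.65, adjusted p = 0.0233). That was its highest Vehicle library, at 26.4 FPKM against 17.4 and 19.6, so leaving it out must raise the fold change. The other fits without 1 library did not call Os9 (limma adjusted p from 0.123 to 0.303). Derl1 and Derl2, which help proteins leave the ER membrane, had log2 fold changes of −0.07 and −0.01. Derl3 was near 0, with an estimated 2, 4 and 6 fragments in the KIRA6 and 1, 4 and 2 in the Vehicle libraries.

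The remaining pair was not called. Wfs1, an ER membrane protein of calcium and stress control, had 1.47, 3.90 and 4.44 FPKM with KIRA6, against 1.13, 0.75 and 2.80 FPKM in Vehicle. Atp2a2, the SERCA2 pump that fills the ER with calcium, had 33.0, 44.3 and 69.0 FPKM with KIRA6, against 54.6, 69.5 and 123 FPKM in Vehicle. In both genes the highest Vehicle library was replicate 3 and the lowest KIRA6 library was replicate 1, and the groups overlapped.

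The spread of the ER genes within the groups followed these 2 libraries. Vehicle replicate 3 was the lowest Vehicle library for 30 of the 55 tested genes and the highest for 22. KIRA6 replicate 1 was the highest KIRA6 library for 23 and the lowest for 20. For 22 genes Vehicle replicate 3 was lowest and KIRA6 replicate 1 highest, and 14 of these were among the 19 translocation genes. The opposite order held for 17 genes, among them Hyou1, Atp2a2, Sel1l, Syvn1, Wfs1, Sec31a and Kdelr1. These positions were not counted over all tested genes, so they are not shown to be particular to the ER genes. Across the 55 genes the deviation of KIRA6 replicate 1 from the other KIRA6 libraries had a Spearman correlation of −0.44 with exonic length, and that of Vehicle replicate 3 from the other Vehicle libraries one of 0.29. Over all tested genes the same values were −0.38 and 0.28, all describing these libraries only. The part of transcript length or of RNA quality in the results was not tested.

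**Figure D3:**
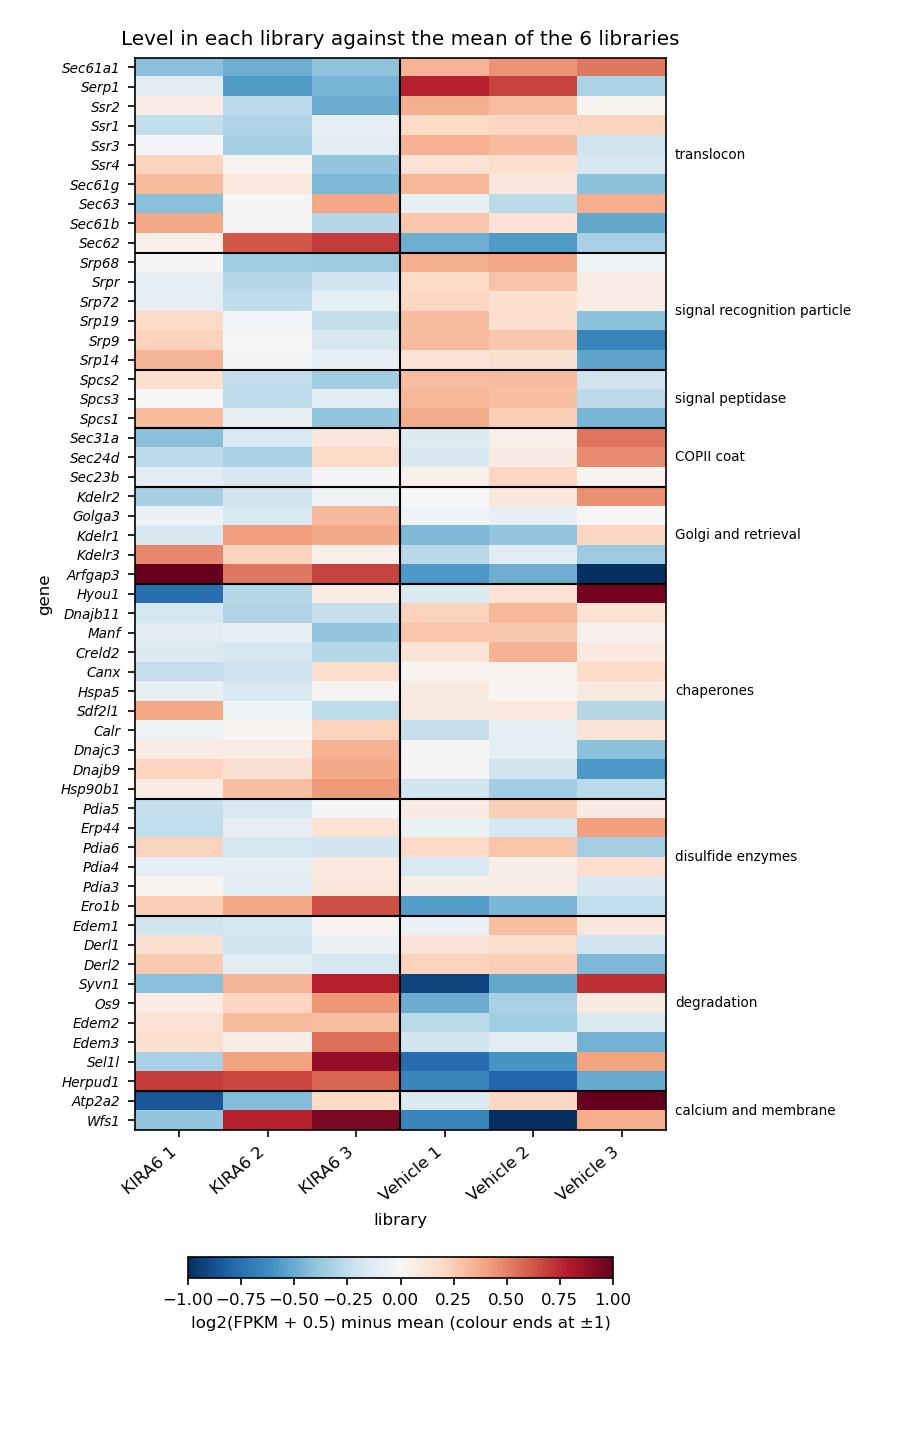
Log2(FPKM + 0.5) of the 55 tested ER genes (rows, by role) in each library (columns, KIRA6 left of Vehicle) minus the mean of the gene over the 6 libraries, with colours ending at ±1. Vehicle replicate 3 is the lowest Vehicle library for 30 genes, among them all 9 tested genes of the signal recognition particle and signal peptidase, while Herpud1 and Arfgap3 keep one colour in each group.

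Without Vehicle replicate 3 and KIRA6 replicate 1 together, 12 of the 55 were called higher and 19 lower, against 35.9% and 20.2% of all tested genes. This pair was taken out for lying apart, so less spread within the groups, and with it more calls, is built in. Direction is set in part as well. Of 19 translocation genes 14 had Vehicle replicate 3 lowest and KIRA6 replicate 1 highest, so this fit must lower their fold changes. The opposite order, which raises them, held for 2. Of 9 degradation genes 4 had the opposite order and 2 the first, so class counts here are no independent result. In that fit 13 of 19 translocation genes were called lower (68.4%), among them all 3 signal peptidase subunits, Srp9, Srp68, Srp72, Srpr, Ssr1, Ssr2, Ssr3, Serp1 and Sec61b. Sec62 was the member of the class that was called higher. Of the 9 degradation genes 5 were called higher, Edem2, Herpud1, Os9, Sel1l and Syvn1, and 2 lower, Derl1 and Derl2. Sel1l had a log2 fold change of 1.32 (limma adjusted p = 0.000549) there, in place of 0.64. Kdelr1 and Kdelr3 were called higher as well, and no COPII gene was called.

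**Figure D4:**
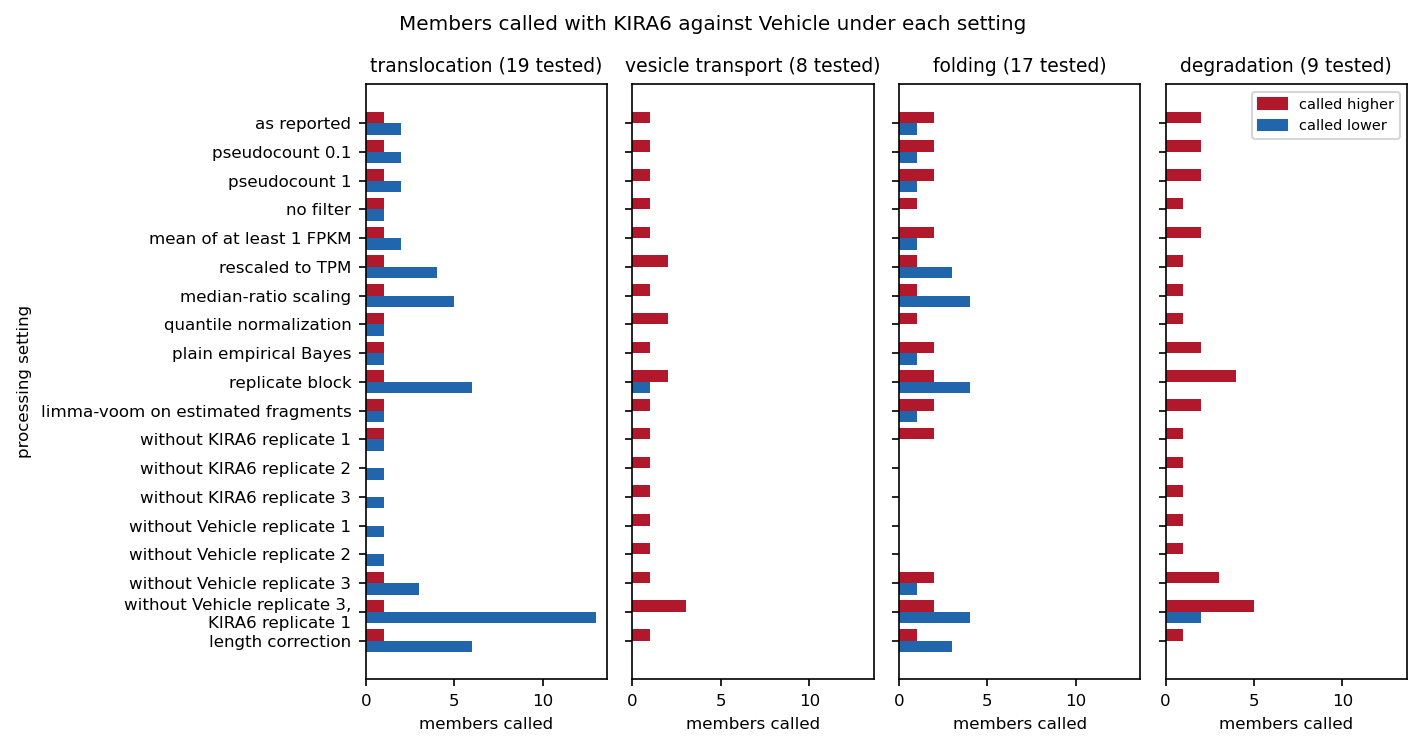
Number of ER genes called higher (red) and lower (blue) with KIRA6 against Vehicle (x axis) in each of 4 classes under each processing setting (y axis, the reported fit at the top). Translocation genes called lower number 2 as reported and 5 with median-ratio scaling, against 7.98% and 12.2% of all tested genes. They number 13 when Vehicle replicate 3 and KIRA6 replicate 1 are both left out, against 20.2% of all tested genes. That pair was taken out for lying apart, so more calls are built in. No filter, quantile normalization, plain empirical Bayes and limma-voom each give 1 translocation gene called lower. TPM rescaling gives 4, and the length correction and the replicate block 6 each. Vesicle transport has 1 call lower, under the replicate block.

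Genes with ERSE, ERSE-II or UPRE in the promoter window were called in both directions. Of the 13 tested, Herpud1, Hsp90b1 and Ero1b were called higher and Dnajb11 lower, against 15.6% and 7.98% of all tested genes, with a median log2 fold change of 0.13 and a range of −0.47 to 1.30. Of the 32 tested genes with none of these elements 3 were called higher and 1 lower, with a median of −0.01 and a range of −0.76 to 1.47. The 2 genes that share ERSE-II, Herpud1 and Dnajb11, were called in opposite directions. ERSE genes that were not called included Hspa5, Calr, Canx, Creld2, Dnajc3, Pdia6 and Syvn1. No comparison of the 2 sets of promoters was tested.

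Other genes of the same pathways, 126 tested of 132 listed, had 12 called higher and 9 lower (9.52% and 7.14%, against 15.6% and 7.98% of all tested genes), with a median log2 fold change of −0.002. Among 30 further translocation and glycosylation genes 0 were called higher and 4 lower by limma, and 2 were higher and 6 lower at an unadjusted p below 0.05, where 24.6% and 12.8% of all tested genes were. The 4 were Rpn1 and Stt3a, a subunit and a catalytic subunit of oligosaccharyltransferase, Srprb, the β subunit of the receptor that Srpr belongs to, and Emc6, of the ER membrane protein complex. Rpn1 averaged 32.8 ± 3.02 FPKM with KIRA6 and 61.4 ± 4.23 FPKM in Vehicle, and Srprb 15.95 ± 2.68 FPKM with KIRA6 and 27.6 ± 4.03 FPKM in Vehicle (SD, n = 3 each; limma adjusted p = 0.00528 and 0.0231).

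Of 33 further COPII and ER-Golgi genes 5 were called higher and 2 lower (15.2% and 6.06%). Of all tested genes 15.6% and 7.98% were, and no list in this paragraph lay above these shares of calls. Sec23a, the paralogue of Sec23b, averaged 26.9 ± 4.80 FPKM with KIRA6 and 12.1 ± 0.591 FPKM in Vehicle (SD, n = 3 each), with a log2 fold change of 1.11 (limma adjusted p = 0.00455). The fusion protein gene Stx5a and the golgin Golgb1 were also called higher, and Ergic1 and Preb, the exchange factor that starts the COPII coat, lower. Of 33 further folding genes 4 were called higher (12.1%), with Fkbp14, Dnajc10 and Cnpy2 at the smallest p, and 1 lower (3.03%). That was Fkbp11, a prolyl isomerase of secretory cells, which averaged 3.77 ± 0.656 FPKM with KIRA6 and 20.03 ± 3.05 FPKM in Vehicle (SD, n = 3 each), so that its log2 fold change was −2.27. Of 30 further degradation genes 3 were called higher (10%), the ubiquitin ligases Rnf5 and Rnf185 and Tmub1. Called lower were 2 (6.67%), the ubiquitin-conjugating enzyme Ube2j2 and Aup1, which recruits such enzymes. At an unadjusted p below 0.05, 9 of the 30 were higher and 7 lower, where 24.6% and 12.8% of all tested genes were. The groups did not overlap for 33.3% that were higher and 26.7% that were lower, against 27.7% and 14.1% of all tested genes. On both measures the COPII and folding lists lay below all tested genes. Rnf5 averaged 26.3 ± 3.21 FPKM with KIRA6 and 9.75 ± 1.77 FPKM in Vehicle (SD, n = 3 each; log2 fold change 1.40).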

How the data were processed

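RNA of 6 libraries of 4T1 cells was selected with oligo(dT) and prepared as strand-marked libraries, per the labels' protocols. Per the submitters' processing notes the build was GRCm39 and the tools included HISAT2 2.2.1, DESeq2 1.34.0, cutadapt 1.9.1 and HTSeq 0.6.1. No source used here gives their settings or the strand use in counting, so overlapping antisense genes may share reads. The authors deposited FPKM per gene and library with 2 decimals. The steps of low values of short genes gave whole fragments within 0.1 fragment for 100% of 770 to 884 values per library, and from them the depths; they cover counting error only.

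Log2(FPKM + 0.5) was fitted across the 11778 genes that averaged 0.5 FPKM or more in limma 3.58.1 (R 4.3.3; trend and robust empirical Bayes, two-sided). Errors are SD between libraries for FPKM and limma's SE for log2 fold changes. The smallest p of an exact permutation test at this group size is 0.1, so none was used. No count test was run as the main result, because FPKM are not counts. Genes given per library were all called ones and 12 set by name (Hspa5, Dnajb9, Calr, Canx, Sec61b, Serp1, Sec24d, Kdelr2, Pdia4, Edem1, Sel1l, Derl3); others given so were chosen after their values were seen. Of the other pathway genes, up to 3 called ones per list and direction were named by smallest p, and Stt3a was added to complete a count. The members, the lists and the tests were chosen with earlier results of these data known. Alternatives changed the pseudocount, filter, scaling, empirical Bayes settings and libraries, added a replicate block, or used limma-voom on estimated fragments; a correction for exonic length was added after seeing the data.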

Additional observations from a re-analysis of the deposited data

How the results depend on the processing

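Pseudocounts of 0.1 and 1 and a minimum mean of 1 FPKM changed no call among the 55 genes. Sec61a1 lower, and Sec62, Arfgap3 and Herpud1 higher, were called under all 12 alternatives that kept the 3 libraries of each group or left out the pair of libraries. Without 1 library at a time the calls numbered 2 to 7 higher and 1 to 4 lower in all, 0 to 1 higher and 1 to 3 lower in translocation, 0 to 2 higher and 0 to 1 lower in folding, 1 to 3 higher and 0 lower in degradation, and 1 higher and 0 lower in vesicle transport. With no filter there were 4 higher and 1 lower in all, 1 lower in translocation, 1 higher and 0 lower in folding and 1 higher in degradation. TPM rescaling gave 5 higher and 7 lower, 4 lower in translocation, 2 higher in vesicle transport, 1 higher and 3 lower in folding and 1 higher in degradation. Median-ratio scaling gave 4 higher and 9 lower, 5 lower in translocation, 1 higher and 4 lower in folding and 1 higher in degradation, and among all genes 47.4% of calls were higher in place of 66.2%. Quantile normalization gave 5 higher and 1 lower, 1 lower in translocation, 2 higher in vesicle transport, 1 higher and 0 lower in folding and 1 higher in degradation. Plain empirical Bayes and limma-voom on estimated fragments each gave 2 lower in all and 1 lower in translocation. The length correction gave 4 higher and 9 lower, 6 lower in translocation, 1 higher and 3 lower in folding and 1 higher in degradation. Leaving out Vehicle replicate 3 and KIRA6 replicate 1 together gave 12 higher and 19 lower, 13 lower in translocation, 3 higher in vesicle transport, 4 lower in folding, and 5 higher and 2 lower in degradation. The cause of these moves was not tested.

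The replicate block called 9 higher and 12 lower in all, 6 lower in translocation, 2 higher and 1 lower in vesicle transport, 4 lower in folding and 4 higher in degradation, while all genes had 2883 calls higher and 1540 lower. Same-numbered libraries deviated from their group means with correlations of 0.76, −0.47 and 0.74. KIRA6 replicate 1 and Vehicle replicate 2, with unlike numbers, had 0.71. These values do not settle whether same-numbered libraries were paired, and the labels do not say. The block was no part of the reported fit.

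Values near 0 turned sign. Median-ratio scaling gave log2 fold changes of −0.13 for Sec61b, −0.13 for Srp9, −0.021 for Srp14, −0.096 for Golga3, −0.056 for Calr, −0.13 for Sdf2l1 and −0.17 for Pdia3, which was −0.028 with TPM rescaling. The length correction gave −0.071 for Sec61b, −0.11 for Srp9, −0.16 for Golga3, −0.028 for Calr, −0.069 for Sdf2l1 and −0.13 for Pdia3. Quantile normalization gave 0.036 for Sec61g, 0.0034 for Spcs1, −0.14 for Golga3, −0.017 for Sdf2l1, 0.056 for Pdia4, 0.031 for Pdia6 and 0.041 for Derl1. Fits without 1 library, or without Vehicle replicate 3 and KIRA6 replicate 1, spanned −0.36 to 0.22 for Sec61b, −0.39 to 0.20 for Sec61g, −0.21 to 0.37 for Sec63, −0.34 to 0.078 for Ssr4, −0.37 to 0.22 for Srp9, −0.18 to 0.29 for Srp14, −0.37 to 0.11 for Srp19, −0.54 to 0.071 for Spcs1, −0.44 to 0.023 for Sec31a, −0.067 to 0.17 for Golga3, −0.25 to 0.19 for Sdf2l1, −0.069 to 0.078 for Pdia3, −0.15 to 0.046 for Pdia4, −0.42 to 0.025 for Pdia6, −0.24 to 0.14 for Erp44, −0.28 to 0.0057 for Derl1 and −0.38 to 0.10 for Derl2. Low counts limit Srp54a and Derl3, at 6 fragments or fewer in every library, and for Srp54a its near-identical copies are a further limit.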
